A study of Danio rerio with 48 samples.

Results

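The genes described are 10 members of the glycolytic chain in the heads of zebrafish larvae exposed to the perfluorinated surfactant PFHxS. They were taken by gene name from the deposited count table as gapdh, gapdhs, pgk1, eno1a, eno3, tpi1a, tpi1b, aldocb, pkma and ldha, which are 10 of its 25445 genes. All 10 passed the filter on low counts and are among the 20723 genes tested. They run from aldolase to lactate dehydrogenase and hold 3 pairs of paralogues, duplicate gene copies that encode the same enzyme, for triosephosphate isomerase, glyceraldehyde-3-phosphate dehydrogenase and enolase.

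Glycolysis splits glucose into pyruvate in the cytosol and yields ATP without oxygen, and lactate dehydrogenase turns pyruvate into lactate when the chain runs faster than mitochondria can take it up. Vertebrates carry several genes for many of its enzymes, and in mammals the copies are divided among tissues, with a muscle enolase (ENO3), a brain aldolase (ALDOC) and broadly active forms such as ENO1 and PGK1. The larval zebrafish head holds jaw and eye muscle, brain and retina, and fast muscle and photoreceptors in particular rely on the pathway. For description eno3, gapdh, pkma and ldha were grouped as muscle-type, aldocb, gapdhs and tpi1b as neural-type, and eno1a, pgk1 and tpi1a as general, and the grouping was set against marker lists of muscle, neurons and photoreceptors.

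The genes are given in the order of the pathway, each with its place in the GRCz11 genome from the deposited table. The aldolase gene aldocb lay on chromosome 21 at 39608637-39639955, minus strand. The triosephosphate isomerase genes were tpi1a on chromosome 19 at 5094218-5103314, minus strand, and tpi1b on chromosome 16 at 12236339-12254995, plus strand. The glyceraldehyde-3-phosphate dehydrogenase genes were both on chromosome 16, gapdh at 17189839-17200121 and gapdhs at 45044642-45069883, each on the minus strand. The phosphoglycerate kinase gene pgk1, whose enzyme makes the first ATP of the chain, lay on chromosome 21 at 37445871-37463556, plus strand. The enolase genes were both on chromosome 23 and the plus strand, eno1a at 22656477-22678883 and eno3 at 44611864-44625580. The pyruvate kinase gene pkma lay on chromosome 18 at 907266-951571, plus strand, and ldha on chromosome 25 at 25123385-25131756, plus strand. All 10 are annotated as protein coding. Genes on the opposite strand overlapped pkma (zgc:101723, median 45.3 CPM), tpi1b (lpcat3, median 5.04 CPM) and ldha, and the sources used here do not give whether counting used strand.

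Larvae of a mixed wild type line were exposed from the day of fertilisation, with daily renewal, to 7.87, 14 or 25.1 µM PFHxS as its potassium salt or to DMSO alone. All groups, controls included, carried 0.4% DMSO. Heads, cut anterior to the swim bladder, were collected at 5 or 4 days post fertilisation (dpf) and pooled by 15, and polyadenylated RNA was sequenced as single reads over 75 cycles. The 8 groups held 6 libraries each, 48 in all, and libraries are named below by the letter in their labels. Whether the pools of a group came from separate clutches is not in the labels, and the p-values below therefore reflect pool-to-pool spread, which may be technical. In pools of whole heads, fewer cells of a type and less RNA per cell cannot be told apart.

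Library totals ran from 16.6 to 39.2 M counts (M for mega), with a median of 22.9 M. Levels are given as CPM, the counts of a gene divided by the library total in M, on library sizes scaled by TMM, a trimmed mean of log ratios to the other libraries, and are compared across groups for 1 gene at a time, since the table gives no transcript lengths. The TMM factors were 1.1 to 1.92 at 5 dpf and 0.566 to 1.098 at 4 dpf, so the scaling itself separated the ages. In 3 libraries the 10 most abundant genes held under 15% of the counts, while the highest library stood at 32%. They were libraries I (12.8%) and F (10.8%) of 7.87 µM at 5 dpf and library H (14.5%) of 7.87 µM at 4 dpf. The 16 libraries in the last columns of the table carry each index number once and the first 32 carry each number more than once, and which library was sequenced in which of the 3 pools is not given in the labels.

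**Figure D1:**
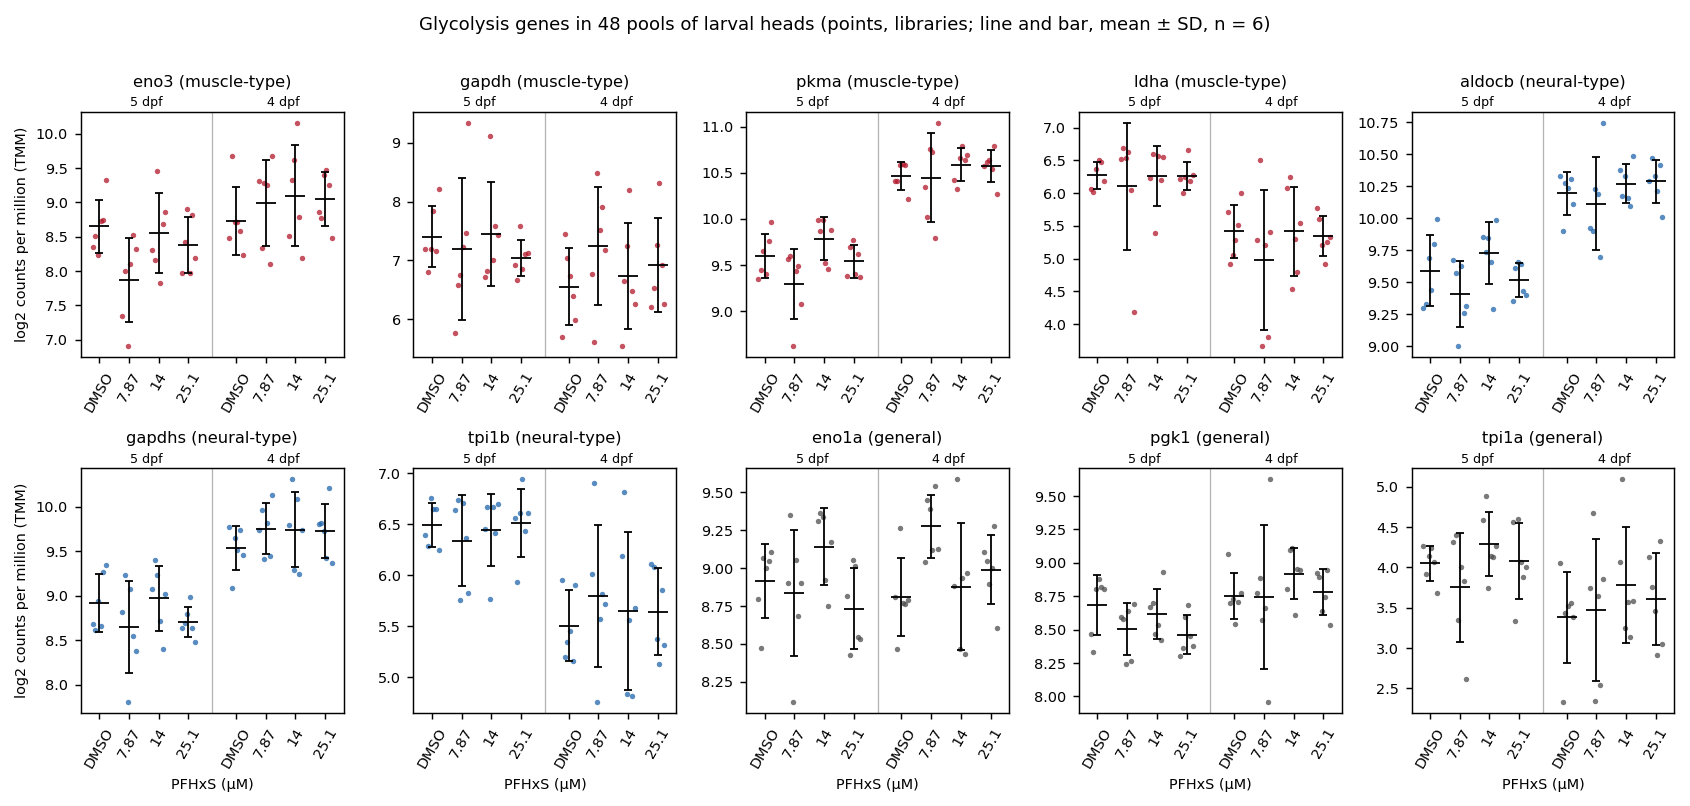
Level of each of the 10 glycolysis genes in every library (log2 CPM, TMM-scaled) over the 4 concentrations, with 5 dpf left and 4 dpf right in each panel; points are libraries, and bars are the group mean ± SD (n = 6). Levels of ldha and tpi1b sit higher, and of pkma, aldocb and gapdhs lower, at 5 than at 4 dpf, while the concentration groups of an age overlap in every panel; the lower levels depend on the TMM scaling.

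Differences between the ages were called for 5 of the 10 genes in DMSO heads, 3 of them on the TMM scale but not on total counts. In DMSO heads, 2 of the 10 genes were higher at 5 than at 4 dpf, ldha and tpi1b, and 3 were lower on the TMM scale, pkma, aldocb and gapdhs. A gene was called where the adjusted p of edgeR's quasi-likelihood test, corrected over all 20723 genes by Benjamini-Hochberg, was under 0.05. Of all genes tested, 21.7% were called higher and 20.2% lower in the same comparison, so the 5 calls among 10 members stood beside 41.9% of all genes called in either direction and lay near that background. The median log2 change was 0.02 over the members and 0.20 over all genes.

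The level of ldha, which reduces pyruvate to lactate, ranged from 64.9 to 90.5 CPM with a median of 77.7 at 5 dpf in DMSO, against 30.3 to 64.0 CPM with a median of 42.2 at 4 dpf. Every 5 dpf library stood above every 4 dpf library. The log2 fold change was 0.82 ± 0.32 (SE, edgeR adjusted p = 0.0372), or 1.76-fold. Leaving out 1 library at a time moved it between 0.73 and 0.96, and the call was lost in 7 of 12 cases, with an adjusted p of up to 0.0828. These were without libraries E, F, G or H at 4 dpf, or F, G or H at 5 dpf, where the adjusted p stood between 0.0532 and 0.0828.

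The level of tpi1b, which interconverts the triose phosphates that aldolase releases, ranged from 76.0 to 108 CPM with a median of 91.9 at 5 dpf in DMSO, against 35.5 to 61.9 CPM with a median of 42.2 at 4 dpf. These groups did not overlap either. The log2 fold change was 0.97 ± 0.27 (SE, edgeR adjusted p = 0.0034), and it held without each library in turn, from 0.91 to 1.07.

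The level of pkma, whose enzyme makes the last ATP of the chain, ranged from 655 to 1002 CPM with a median of 749.6 at 5 dpf in DMSO, against 1193 to 1547 CPM with a median of 1448 at 4 dpf. All 5 dpf libraries lay below all 4 dpf libraries. On the TMM scale it fell by 0.86 ± 0.17 in log2 (edgeR adjusted p = 8.01e-05), whereas with total counts as the only scaling the change was −0.17 and was not called.

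The level of aldocb ranged from 630.3 to 1018 CPM with a median of 759.6 at 5 dpf in DMSO, against 953 to 1290.4 CPM with a median of 1224 at 4 dpf. The level of gapdhs ranged from 392 to 649.6 CPM with a median of 451 at 5 dpf, against 546 to 874 CPM with a median of 769.6 at 4 dpf. Both groups of values overlapped between the ages. On the TMM scale aldocb fell by 0.59 ± 0.15 (edgeR adjusted p = 0.00197) and gapdhs fell by 0.61 ± 0.20 (0.0135) in log2, but with total counts only both changes turned to 0.09 and 0.07, not called.

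The remaining members were not called between the ages in DMSO. The log2 fold changes were 0.81 ± 0.47 for gapdh (edgeR adjusted p = 0.155), 0.61 ± 0.32 for tpi1a (0.126), 0.10 for eno1a (0.667), −0.06 for pgk1 (0.78) and −0.12 for eno3 (0.773). For gapdh the levels ran from 112 to 296 CPM at 5 dpf and from 51.9 to 175 CPM at 4 dpf in DMSO, and the ages overlapped. For tpi1a they ran from 12.8 to 19.1 CPM with a median of 17.2 at 5 dpf, against 4.97 to 16.5 CPM with a median of 11.1 at 4 dpf. For pgk1 they ran from 323 to 471 CPM with a median of 447 at 5 dpf, against 372 to 537 CPM with a median of 421 at 4 dpf, and these too overlapped. Of all genes, 14% had 6 libraries at 5 dpf above all 6 at 4 dpf and 14.5% had them below, against 2 and 1 of the 10 members.

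In the exposed heads pkma, aldocb and gapdhs were called lower on the TMM scale at each concentration, whereas on total counts pkma at 25.1 µM was the one member called lower. At 7.87 µM, 1 member was higher and 4 lower, beside 26.9% and 23.7% of all genes (50.5% in either direction). At 14 µM the counts were 1 and 3, beside 22% and 19% (40.9%), and at 25.1 µM they were 2 and 3, beside 25.8% and 21.2% (47%). Members whose ages did not overlap numbered 0 higher and 3 lower at 7.87 µM (4.88% and 8.51% of all genes), 0 and 2 at 14 µM (6.09% and 7.51%) and 1 and 3 at 25.1 µM (13.4% and 15.8%). With TMM, the log2 change of pkma over rising concentration was −1.17, −0.79 and −1.03, each with an SE of 0.17 (edgeR adjusted p of 2.64e-07, 0.000224 and 4.5e-06), and its ages did not overlap at any of them. On total counts these changes were −0.22, −0.04 and −0.26, of which the last was called (edgeR adjusted p 0.0362).

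At 25.1 µM, pkma ranged from 664 to 878 CPM with a median of 733 at 5 dpf, against 1236 to 1775 CPM with a median of 1542 at 4 dpf. The gapdhs levels there ranged from 356 to 506 CPM with a median of 406 at 5 dpf, against 663 to 1188 CPM with a median of 874 at 4 dpf, without overlap. The aldocb levels ranged from 654 to 807 CPM with a median of 735 at 5 dpf, against 1028 to 1419 CPM with a median of 1270.3 at 4 dpf, also without overlap. On the TMM scale gapdhs fell by 1.04 ± 0.20 (edgeR adjusted p = 5.08e-05) and aldocb fell by 0.77 ± 0.15 (7.05e-05) in log2, while on total counts the changes were −0.25 and 0.00 and neither was called.

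Of the lactate and triose steps, ldha was called higher at 25.1 µM and at 7.87 µM, and tpi1b at 25.1 µM and 14 µM. At 25.1 µM, ldha ranged from 63.8 to 101 CPM with a median of 75.1 at 5 dpf, against 30.2 to 54.8 CPM with a median of 39.0 at 4 dpf, with no overlap. The log2 fold change was 0.91 ± 0.32 (edgeR adjusted p = 0.019). At 7.87 µM it was 1.00 ± 0.32 (0.0094), although library I at 5 dpf read 18.1 CPM while the median there was 92.5 CPM. At 14 µM it was 0.77 ± 0.32 with an adjusted p of 0.0521, just outside the threshold.

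The tpi1b log2 fold change was 0.85 ± 0.27 at 25.1 µM (edgeR adjusted p = 0.00869), 0.65 ± 0.27 at 14 µM (0.0472) and 0.46 ± 0.27 at 7.87 µM (0.151). At 25.1 µM its levels ranged from 61.1 to 123 CPM with a median of 95.8 at 5 dpf, against 34.8 to 69.2 CPM with a median of 49.5 at 4 dpf, and 5 of the 6 libraries at 5 dpf lay above all those at 4 dpf. The 14 µM call was lost in 9 of 12 cases of leaving out 1 library, with changes of 0.51 to 0.66 and adjusted p of 0.0601 to 0.139; these were libraries C, D, H and I at 4 dpf and A, D, G, H and I at 5 dpf. Where ldha and tpi1b were called on the TMM scale they were also higher and called on total counts (1.42 to 1.83 in log2) and in a limma test of the authors' quantile values (1.1 to 1.48). On total counts the median change over all genes was itself 0.88 to 1.06 in log2. Genes already higher with TMM could hardly turn there, so total counts are a weak check of a rise.

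Of the 4 age comparisons, muscle enolase, eno3, was called lower at 7.87 µM alone, on the TMM scale but not on total counts or quantile values. Its levels there ranged from 121 to 367 CPM with a median of 265 at 5 dpf, against 274 to 815 CPM with a median of 617 at 4 dpf. The log2 change on the TMM scale was −1.13 ± 0.30 (edgeR adjusted p = 0.00192), against −0.16 on total counts and −0.27 on quantile values, neither called. The difference between this change and that of DMSO heads was −1.01 ± 0.42, which did not pass (edgeR adjusted p = 0.724). At 14 and 25.1 µM eno3 was not called, though its mean CPM at 5 dpf was 0.658 and 0.634 of that at 4 dpf. The same ratio was 0.457 at 7.87 µM and 0.922 in DMSO. Without the 3 libraries of low top-gene share, the direction and the call at 7.87 µM were the same. With TMM, 2, 3 and 5 of 31 fast skeletal muscle genes were called higher and 11, 8 and 11 lower over rising concentration. In DMSO 12 were higher and 4 lower. Over all genes 26.9%, 22% and 25.8% were higher and 23.7%, 19% and 21.2% lower, and 21.7% and 20.2% in DMSO. On total counts 14, 16 and 14 were higher and 3, 2 and 4 lower, against 18 and 0 in DMSO. There 55.6% to 62.8% of all genes were higher. The quantile values gave 13, 14 and 15 of the 31 higher and 6, 2 and 6 lower, against 17 and 1 in DMSO. By that test 15.3% to 22.8% of all genes were higher and 19.4% to 23.8% lower. The part of muscle content in the eno3 values was not tested.

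The direction of aldocb changed with the scaling in each comparison, while ldha and tpi1b kept theirs. That of gapdhs turned in DMSO and at 14 µM only, and that of pkma at 7.87 and 14 µM only, on the quantile values. With total counts only, 7, 5, 6 and 5 members were called higher at 0, 7.87, 14 and 25.1 µM, against 0, 0, 0 and 1 called lower. Of all genes 55.6%, 62.8%, 61.1% and 61.3% were then called higher and 6.52%, 7.25%, 5.78% and 7.28% lower, so the members' counts lay near the background. The median change over all genes was then 0.88, 1.06, 1.00 and 1.02 in log2 and 89.4% to 91.4% of the calls over all genes were higher, against 51.7% to 54.8% on the TMM scale. The authors' quantile values, tested with limma, gave 6, 5, 5 and 4 members higher and 0 lower, beside 15.3%, 22.8%, 16.8% and 18.6% of all genes higher and 20.7%, 23.8%, 19.4% and 22.2% lower, with a median over all genes of 0.00 to 0.09. By that test aldocb was higher at 7.87 µM (0.51, limma adjusted p = 0.00899), the opposite of its direction on the TMM scale. Relative to the median change of all genes, pkma, aldocb and gapdhs lay below it on the TMM and total count scales in each of the 4 comparisons. These scalings differ only by a factor for each library, so the total counts are no separate check of this. On the quantile values aldocb lay above the median in all 4 comparisons, with log2 changes of 0.19 to 0.51 that are not reduced by the median. There gapdhs also lay above it in DMSO and at 14 µM (log2 changes of 0.14 and 0.12), and pkma at 14 µM (0.15). The medians over all genes there were the 0.00 to 0.09 given above.

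**Figure D2:**
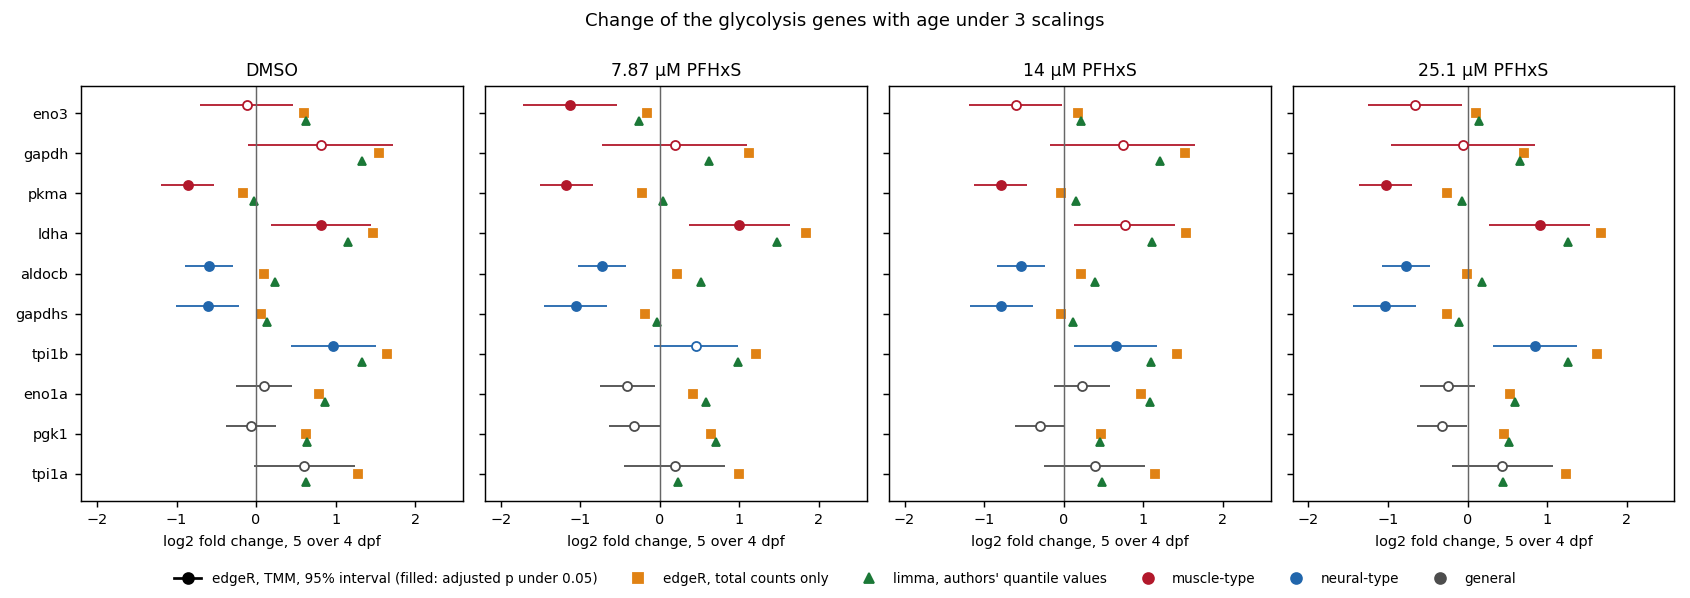
Log2 fold change of 5 over 4 dpf for each gene in DMSO, 7.87, 14 and 25.1 µM PFHxS. Circles are edgeR with TMM (filled where the adjusted p is under 0.05, bars the 95% interval). They are red for muscle-type, blue for neural-type and dark grey for general genes. Orange squares are total counts only and green triangles limma on the authors' quantile values. Marks for ldha and tpi1b are positive under all 3 scalings in each panel, whereas those for pkma, aldocb and gapdhs lie below 0 with TMM and closer to or above 0 with the others.

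Values taken separately in the first 32 and the last 16 columns kept the direction of all 5 genes called in DMSO and at 25.1 µM. In DMSO (5 and 2 libraries of 5 and 4 dpf in the first columns, 1 and 4 in the last), the log2 differences of means were 0.93 and 0.59 for ldha, 0.89 and 0.86 for tpi1b, and −0.87 and −1.01 for pkma. At 25.1 µM (4 and 4, then 2 and 2 libraries) they were 1.04 and 0.67 for ldha, 1.02 and 0.58 for tpi1b, and −1.09 and −0.91 for pkma. At 7.87 µM the last columns held 3 libraries of 5 dpf and 0 of 4 dpf, so age was partly mixed with column position. In the first columns there (3 and 6 libraries) ldha stood at 0.86 and eno3 at −0.85. The genes pkma, gapdhs and aldocb stood at −1.08, −0.86 and −0.61. With column position as a term in the fit the number of members called at the adjusted threshold did not change in any comparison.

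PFHxS itself was tested at each age against the DMSO heads of that age. None of the 10 genes was called at any concentration, in a background of 0% of the 20723 genes called in all 6 comparisons by edgeR. At an unadjusted p under 0.05 there were 1 member at 7.87 µM and 0 at 14 and 25.1 µM at each age. For all genes that share was 12%, 5.05% and 2.61% at 4 dpf for 7.87, 14 and 25.1 µM, and 4.69%, 0.729% and 0.671% at 5 dpf. DESeq2 called 8, 1 and 0 genes at 4 dpf and 0, 0 and 1 at 5 dpf, limma on the quantile values 0, 1 and 0 and then 0, 0 and 0, and none of these calls was a member.

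The 2 lowest unadjusted p among members came from enolase genes. For eno1a at 4 dpf the levels ranged from 354 to 616 CPM with a median of 439 in DMSO, 526 to 744 with a median of 615 at 7.87 µM, 346 to 769.6 with a median of 480.4 at 14 µM, and 390.0 to 622 with a median of 521 at 25.1 µM. The 7.87 µM group overlapped the DMSO group. Its log2 difference was 0.46 ± 0.18 (95% interval 0.11 to 0.81, unadjusted p = 0.0132, edgeR adjusted p = 0.289). All 6 of those 7.87 µM libraries stood in the first 32 columns and 2 of the DMSO libraries did; against those 2 the difference was 0.24, and with column position as a term 0 members had an unadjusted p under 0.05 in this comparison.

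For eno3 at 5 dpf the levels ranged from 301 to 645 CPM with a median of 395 in DMSO, 121 to 367 with a median of 265 at 7.87 µM, 227 to 703 with a median of 365 at 14 µM, and 250.0 to 479 with a median of 318 at 25.1 µM. The lowest concentration had the lowest median. Its log2 difference from DMSO was −0.73 ± 0.30 (95% interval −1.32 to −0.14, unadjusted p = 0.0186, edgeR adjusted p = 0.986), and the unadjusted p was no longer under 0.05 without the 3 libraries of low top-gene share. At 4 dpf the same gene stood at a difference of 0.28 ± 0.30 from DMSO at 7.87 µM (edgeR adjusted p = 0.758).

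At 25.1 µM, the highest concentration, the intervals give the differences that the values of each gene allow, without adjustment over all genes. For aldocb, with the narrowest interval, the log2 difference from DMSO was −0.09 at 5 dpf (95% interval −0.39 to 0.21) and 0.09 at 4 dpf (−0.21 to 0.39). For pkma it was −0.06 (−0.39 to 0.27) at 5 dpf and 0.11 (−0.23 to 0.44) at 4 dpf. For ldha it was −0.01 (−0.63 to 0.62) at 5 dpf and −0.09 (−0.72 to 0.53) at 4 dpf. For gapdh, with the widest interval, it was −0.41 (−1.32 to 0.50) at 5 dpf and 0.46 (−0.45 to 1.37) at 4 dpf. A p that missed the threshold does not show that the levels were equal, and for gapdh changes of more than 1 in log2 lay within the interval.

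Signs among the 10 members were counted without a test. At 4 dpf 8, 10 and 9 of the 10 were above DMSO at 7.87, 14 and 25.1 µM, with medians of 0.22, 0.20 and 0.17 in log2, against medians of 0.05, 0.00 and −0.01 over all genes. At 5 dpf 2, 7 and 2 of the 10 were above DMSO, with medians of −0.19, 0.10 and −0.14. The 3 comparisons of an age share the same 6 DMSO libraries. At 4 dpf 2 of these stood in the first 32 columns and 4 in the last 16, and some signs differed between the columns. For gapdh the first and last columns gave 0.72 and −0.62 at 14 µM, and 0.81 and −0.25 at 25.1 µM. For eno3 they gave 0.72 and −0.15, and 0.64 and −0.17, while gapdhs stayed positive throughout. At 7.87 µM all 6 libraries stood in the first columns. There pkma, ldha, aldocb, pgk1 and tpi1a lay below DMSO and the other members above. The 31 genes of a fast skeletal muscle list were above DMSO in 27, 31 and 31 cases at 4 dpf, with 0 called and medians of 0.37, 0.43 and 0.49. At 5 dpf they were above in 7, 12 and 10 cases. In the first 32 columns at 4 dpf the mean log2 CPM of this list was 7.22 and 7.43 in the DMSO libraries. It was 7.10 to 8.52, 7.29 to 8.59 and 7.75 to 8.51 there at 7.87, 14 and 25.1 µM. In the last 16 columns it was 6.91 to 8.40 in DMSO, 7.40 in each library of 14 µM, and 7.51 and 7.74 at 25.1 µM. The part of muscle content, or of column position, in the members' values was not tested.

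**Figure D3:**
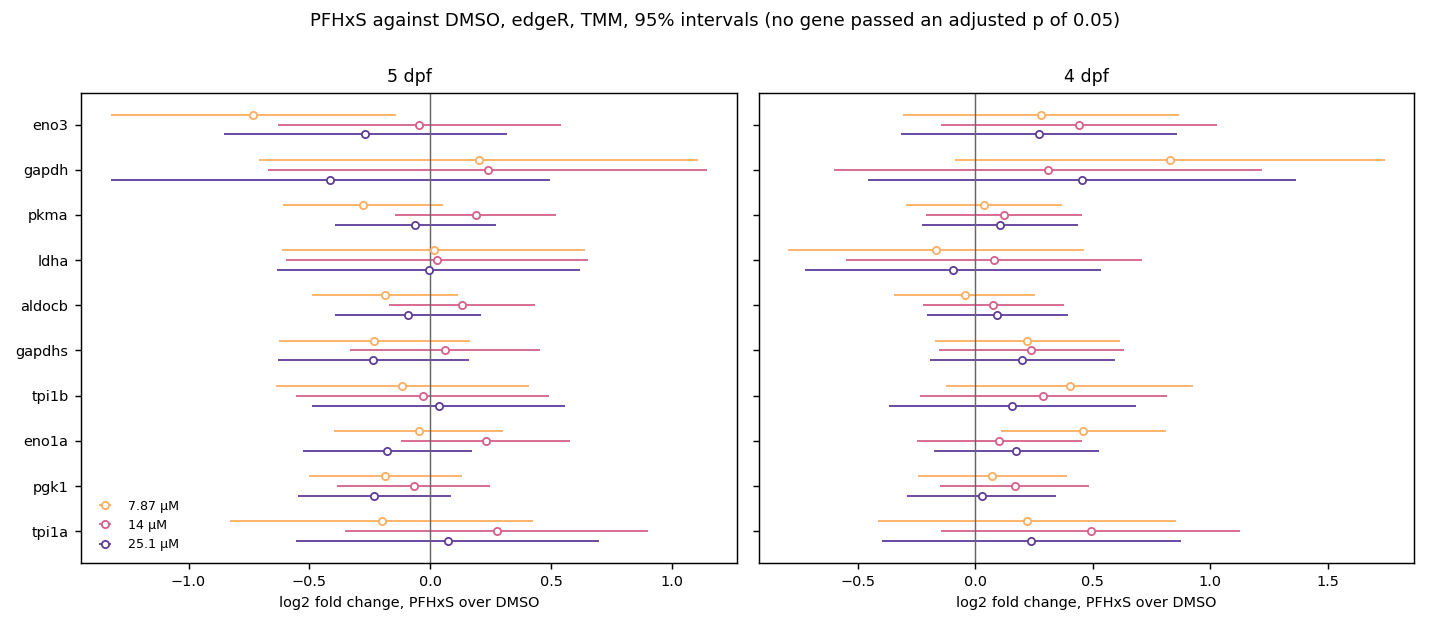
Log2 difference from DMSO of each gene at 7.87, 14 and 25.1 µM PFHxS, 5 dpf left and 4 dpf right, from edgeR with TMM; bars are 95% intervals (n = 6 libraries a group). Nearly all intervals include 0, the exceptions being eno3 at 7.87 µM at 5 dpf and eno1a at 7.87 µM at 4 dpf, and none of the differences passed the adjusted threshold.

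Neither the trend over concentration nor the difference of effects between ages called a member. Slopes per µM were tested in the 24 libraries of each age; 0 of 18353 genes were called at 4 dpf and 1 of 20406 (0.0049%) at 5 dpf, none a member, and the lowest member p was 0.367 for eno3 at 4 dpf and 0.132 for pgk1 at 5 dpf. The interactions of age with concentration called 0 of 20723 genes (1.84% to 6.56% at an unadjusted p under 0.05). Among the members eno3 gave −1.01 ± 0.42 (unadjusted p = 0.0209) and eno1a −0.51 ± 0.25 (0.0497) at 7.87 µM, each with an edgeR adjusted p of 0.724. With column position as a term, 0 members had an unadjusted p under 0.05 in this interaction.

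The paralogue pairs gave a measure that does not depend on library scaling, the ratio of 2 members in the same library. The gapdh over gapdhs ratio, on log2(count + 0.5), was −1.52 ± 0.47 (SD, n = 6) at 5 dpf and −2.99 ± 0.84 at 4 dpf in DMSO. In counts, gapdh stood at 0.326 of gapdhs in the median 5 dpf library and at 0.119 in the median 4 dpf library, and 3 of the 6 libraries at 5 dpf lay above all those at 4 dpf. The difference was 1.47 in log2, with an exact two-sided permutation p of 0.00866, or 0.195 when adjusted over the 30 ratio comparisons made. It stood at 1.05 (exact p = 0.208), 1.49 (0.026) and 1.15 (0.0238) at 7.87, 14 and 25.1 µM, adjusted 0.519, 0.195 and 0.195. All 4 were positive and none passed the adjustment.

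The eno3 over eno1a ratio was −0.97 ± 0.52 at 7.87 µM and −0.26 ± 0.37 in DMSO at 5 dpf (SD, n = 6 each), with 4 of the 6 exposed libraries below all DMSO libraries. The difference of −0.71 had an exact permutation p of 0.026 and an adjusted 0.195. At 14 and 25.1 µM the differences were −0.32 and −0.09 (exact p of 0.275 and 0.736). The tpi1a over tpi1b ratio at 25.1 µM was −2.44 ± 0.36 at 5 dpf and −2.04 ± 0.30 at 4 dpf, a difference of −0.40 (exact p = 0.0476, adjusted 0.286). None of the 30 comparisons passed after adjustment; 6 libraries against 6 allow a smallest exact p of 0.00216 from 924 splits.

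**Figure D4:**
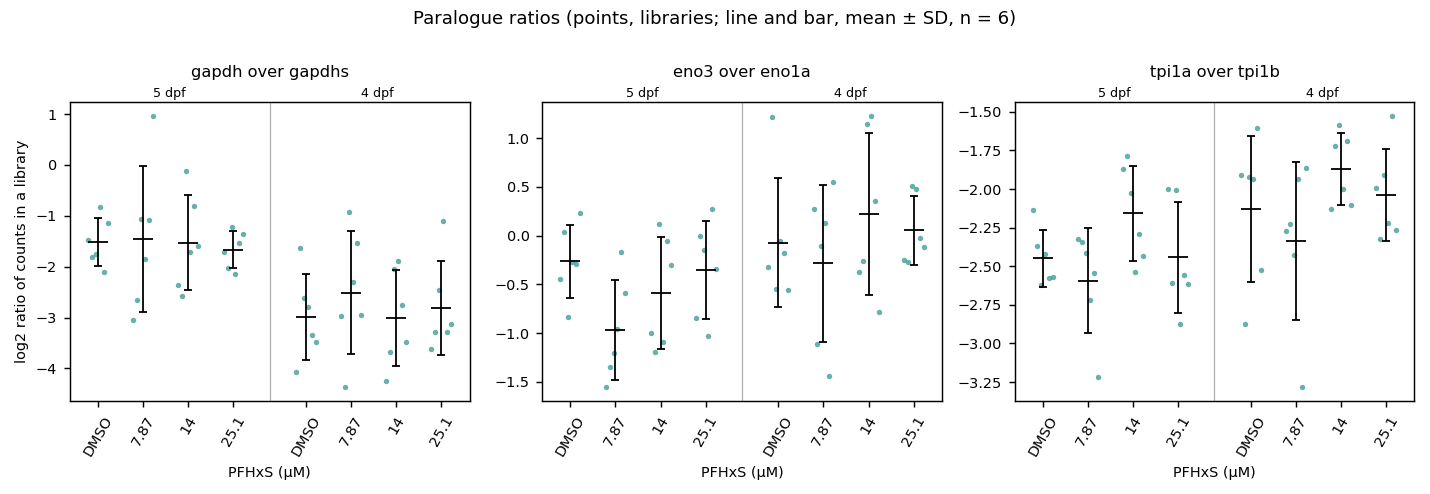
Log2 ratio of each paralogue pair in every library (counts plus 0.5) over the 4 concentrations, 5 dpf left and 4 dpf right, with the group mean ± SD (n = 6). The gapdh over gapdhs ratio in DMSO is −1.52 ± 0.47 at 5 dpf and −2.99 ± 0.84 at 4 dpf, while no ratio comparison passed the adjusted threshold.

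Libraries of 1 group differed most in gapdh. Its SD of log2 CPM within groups was 0.83, larger than that of 97.9% of the 8231 tested genes with an average log2 CPM of at least 3, whose median was 0.37. It was followed by ldha (0.62), tpi1a (0.59), eno3 (0.54) and tpi1b (0.48). The genes gapdhs (0.35), eno1a (0.30), pkma (0.27), pgk1 (0.26) and aldocb (0.23, larger than 7.16% of genes) lay below that median.

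How the members varied together within groups was followed over the 24 libraries of each age after the group means were removed, in a family of 150 relations. Of 45 pairs of members, 16 at 5 dpf and 15 at 4 dpf passed the adjusted threshold, and 36 and 29 were positive. The libraries share their scaling factor, so a pair can move together through it. How often pairs of other genes, or other genes and the marker lists, would pass was not counted. Whether the counts are particular to the members is therefore not known. Each permutation p given here is that of Pearson's r. By the permutation p of rho, adjusted in the same way, the relation of gapdh with fast muscle at 4 dpf (0.0556), of gapdh with ldha at 5 dpf (0.0974) and of ldha with photoreceptor genes at 5 dpf (0.062) did not pass, whereas that of tpi1b with neuron genes at 5 dpf passed by rho (0.0323) and not by r. Of the 4 muscle-type genes, by r eno3 and gapdh moved with the fast muscle list at both ages, pkma passed the threshold at neither, and ldha moved against the list at 5 dpf.

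Against the mean of the 31 fast muscle genes, eno3 gave a Pearson r of 0.74 at 5 dpf (Spearman rho 0.67, permutation p = 0.00019, adjusted 0.00178) and 0.83 at 4 dpf (rho 0.84, permutation p = 5e-05, adjusted 0.000682). Without the 2 libraries farthest from the median these were 0.72 and 0.78. For gapdh r was 0.69 (rho 0.76, permutation p = 2e-05, adjusted 0.000333) and 0.59 (rho 0.53, 0.0057, adjusted 0.0231), and 0.72 and 0.48 without those libraries. For pkma r was 0.11 and 0.32 (adjusted p of 0.761 and 0.337), and for ldha −0.54 at 5 dpf (rho −0.59, permutation p = 0.00183, adjusted 0.0102) and −0.22 at 4 dpf (adjusted 0.548).

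The opposite course of gapdh and ldha held at 4 dpf without the farthest libraries and rested on a pair of libraries at 5 dpf. At 4 dpf r was −0.75 (rho −0.77, permutation p = 0.00015, adjusted 0.0015), and −0.74 without the 2 farthest libraries. At 5 dpf r was −0.77 (rho −0.47, 0.00941, adjusted 0.0353) but −0.31 without library E of 14 µM and library I of 7.87 µM. By contrast ldha and tpi1b moved together, with r of 0.68 at 5 dpf (rho 0.78, permutation p = 0.00109, adjusted 0.00688) and 0.83 at 4 dpf (rho 0.82, 3e-05, adjusted 0.00045), and of 0.59 and 0.73 without the 2 farthest libraries.

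**Figure D5:**
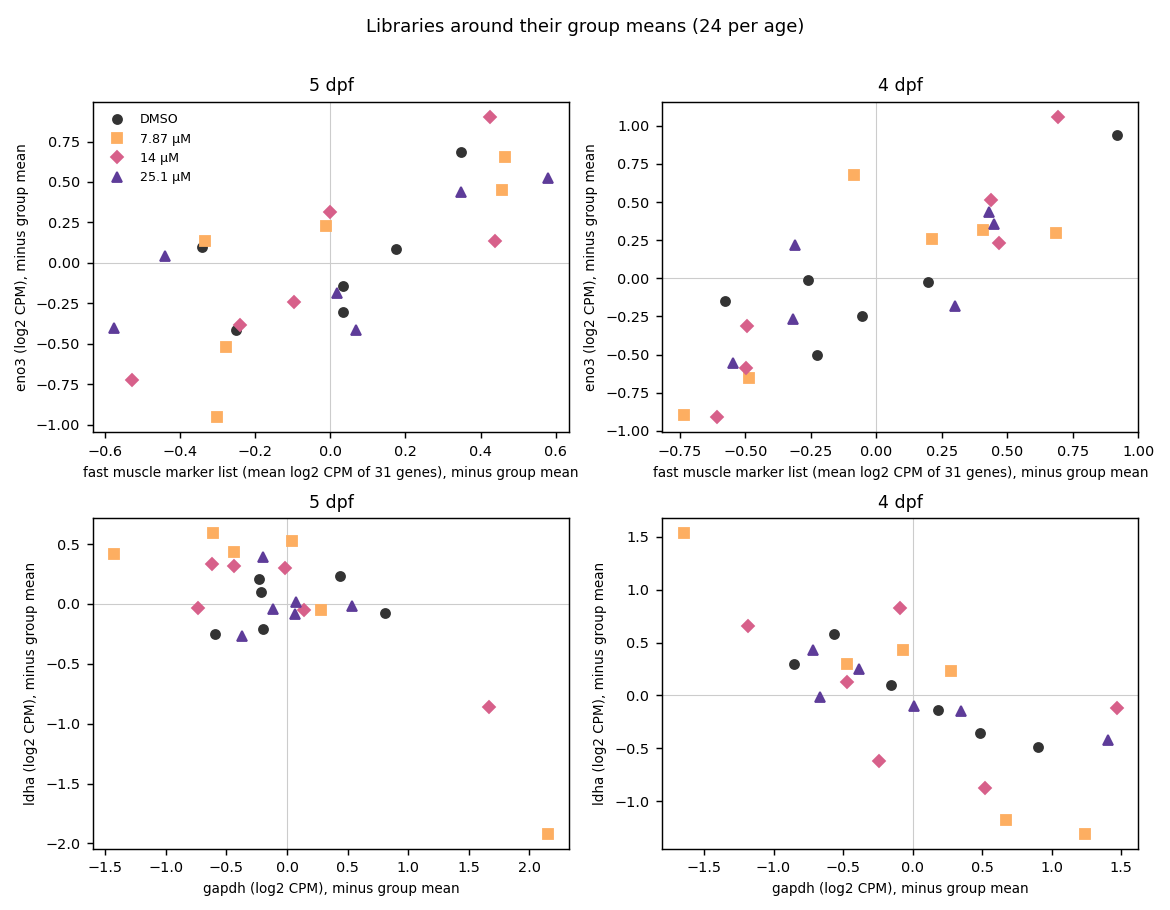
Within-group deviations of single libraries in log2 CPM: eno3 against the mean of 31 fast muscle genes (top) and ldha against gapdh (bottom), 5 dpf left and 4 dpf right, 24 libraries each with group means removed. The eno3 points rise with the muscle list (r = 0.74 and 0.83) and the ldha points fall with gapdh (r = −0.77 and −0.75), and the ldha and gapdh relation at 5 dpf rests on 2 libraries.

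The neural-type grouping matched the marker lists in part. By r, aldocb passed against neuron genes at 5 dpf alone, and gapdhs and tpi1b at neither age. Genes of the other groups also passed against the neuron and photoreceptor lists. Against a list of 28 neuron genes, aldocb gave r of 0.55 at 5 dpf (rho 0.60, permutation p = 0.0134, adjusted 0.041) and 0.31 at 4 dpf (adjusted 0.337), and 0.64 and 0.33 without the 2 farthest libraries. The gene ldha was grouped as muscle-type, although it moved against the muscle list at 5 dpf. Against the neuron list it gave a like r of 0.52 (rho 0.68, permutation p = 0.0126, adjusted 0.041) at 5 dpf and 0.22 (adjusted 0.548) at 4 dpf, and 0.49 and 0.23 without those libraries. For gapdhs and tpi1b r was 0.36 and 0.46 at 5 dpf and −0.14 and 0.07 at 4 dpf, and none passed by r. A list of 20 photoreceptor genes moved with tpi1b, at r of 0.65 (rho 0.59, permutation p = 0.00234, adjusted 0.0117) at 5 dpf and 0.81 (rho 0.67, 0.00011, adjusted 0.00118) at 4 dpf, and of 0.57 and 0.71 without the 2 farthest libraries. For gapdhs against this list r was 0.38 (rho 0.33, adjusted 0.358) at 5 dpf and 0.72 (rho 0.67, permutation p = 0.00085, adjusted 0.0058) at 4 dpf, and 0.18 and 0.65 without those libraries. The general gene tpi1a also moved with it, at 0.88 (rho 0.87) and 0.80 (rho 0.74), each with a permutation p of 1e-05, the smallest that 100000 permutations can give, and an adjusted 0.0003, and at 0.82 and 0.70 without those libraries. For ldha against the same list r was 0.74 (rho 0.51, permutation p = 0.00451, adjusted 0.0193) at 5 dpf and 0.71 (rho 0.63, 0.00134, adjusted 0.00804) at 4 dpf, and 0.44 and 0.62 without them.

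The 3 genes whose pattern was most like each member were taken from 11983 named genes by r over the 48 libraries with group means removed, as a description. For eno3 they were ckma, the muscle creatine kinase (0.94), naprt (0.93) and slc30a7 (0.92). For gapdh they were rbp4 (0.94), gpx1a (0.90) and mylpfa, a fast muscle myosin light chain (0.89). For aldocb they were snap25b, a synaptic vesicle fusion protein (0.89), and the calretinin genes calb2b (0.83) and calb2a (0.82). For tpi1b they were glula, a glutamine synthetase of glia (0.91), zc4h2 (0.90) and cth (0.89), and for ldha pcyt2 (0.96), laptm4b (0.94) and sox11a (0.94).

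For pkma the nearest were znf207a (0.93), slc25a12, a mitochondrial aspartate and glutamate carrier (0.92), and ilf3b (0.90). For gapdhs they were slc25a5, which exchanges ADP for ATP across the mitochondrial membrane, selenot1a and ppme1, each at 0.84. For eno1a they were gpia, the glucose-6-phosphate isomerase of the same pathway (0.81), clta (0.79) and hist2h2l (0.78). For pgk1 they were lmo4b (0.80), eef1db (0.79) and calb2b (0.77), and for tpi1a psmc2 (0.91), tssc4 (0.90) and get4 (0.89). A glycolytic gene was thus among the 3 nearest for 1 of the 10.

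The rest of the pathway was read from lists of 28 other glycolysis genes, 26 tested genes of regulation and glucose entry, and 10 tested genes of gluconeogenesis. None was called for PFHxS at either age. At 25.1 µM the largest differences from DMSO at 4 dpf were 1.68 for pfkfb1, 1.66 for gck and 1.65 for slc37a4a upwards and −0.73 for pdk3b, −0.34 for pfkfb4a and −0.29 for mpc1 downwards. At 5 dpf the largest upwards were 0.89 for fbp2, 0.57 for hif1al2 and 0.49 for pdk2b, and those downwards included −2.27 for gck and −0.45 for slc2a3b, none of which passed the test. Beside the values at 4 dpf, none of the 12 liver markers was called, but all 12 had a positive difference (median 1.21), with a summed level of 376 to 1653 CPM (median 1113) at 25.1 µM and 136 to 1238 CPM (median 266) in DMSO, and no marker was at 0 in all libraries. The 13 exocrine pancreas markers were also all positive and uncalled (median 1.73), with a summed level of 38.5 to 433 CPM at 25.1 µM and 13 to 232 CPM in DMSO. Their part in these differences was not tested.

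Between 5 and 4 dpf in DMSO, 10 of the 28 other glycolysis genes were called higher and 6 lower on the TMM scale, against 17 and 1 on total counts and 12 and 4 on the quantile values. Of all genes, 21.7% were called higher and 20.2% lower with TMM, and 55.6% and 6.52% on total counts. On the quantile values these shares were 15.3% and 20.7%. Both counts on total counts, and the lower count with TMM, lay near the background. The median log2 change of 0.18 stood beside 0.20 for all genes. Of the phosphoglycerate mutases, which move the phosphate before enolase acts, pgam1b was lower (−1.53 ± 0.24, edgeR adjusted p = 2.95e-06) and pgam1a and pgam2 higher (1.41 ± 0.26 and 1.76 ± 0.34), and these 3 directions and calls were the same on total counts (−0.83, 2.12 and 2.5) and on quantile values (−0.96, 1.49 and 1.49). The muscle-type phosphofructokinases pfkma and pfkmb, of the committing step, were higher (0.86 and 1.1), the aldolase aldoca was higher (1.18), and so was pkmb, the second copy of pkma (1.38), under all 3 scalings. The platelet-type pfkpa (−0.94), the liver-type pfklb (−0.98) and ldhbb, the second kind of lactate dehydrogenase subunit (−0.80), were lower with TMM and on quantile values but not called on total counts, and aldoaa (−0.69) and hk1 (−0.52) lay at 0.00 and 0.17 there.

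Other called members of that list included hkdc1 (3.09), gck (2.64), which phosphorylates glucose in liver and pancreas, and pfkla (0.79), all higher. In the exposed heads 7, 9 and 7 were higher and 9, 7 and 8 lower at 7.87, 14 and 25.1 µM on the TMM scale, against 16, 18 and 16 higher and 4, 1 and 4 lower on total counts. Of all genes, 26.9%, 22% and 25.8% were then higher and 23.7%, 19% and 21.2% lower with TMM. On total counts 62.8%, 61.1% and 61.3% were higher and 7.25%, 5.78% and 7.28% lower. With TMM pgam1b stood at −1.85, −1.59 and −1.70 at these concentrations and ldhbb at −1.37, −0.90 and −1.07, all called. On total counts pgam1b stayed lower and called (−0.84, −0.82 and −0.92), whereas ldhbb was called at 7.87 µM (−0.46) and not at 14 and 25.1 µM (−0.16 and −0.30).

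Of the 26 regulators and transporters, 16 were called higher and 1 lower at 5 dpf in DMSO, with a median of 0.98. Over all genes 21.7% were called higher and 20.2% lower. The largest changes were in pdk2b, a kinase that switches off pyruvate dehydrogenase and so limits pyruvate oxidation (3.68 ± 0.45, edgeR adjusted p = 5.56e-08), pfkfb1 (3.48) and the glucose transporter slc2a2 (3.10). Also higher were the glucose transporters slc2a1a (1.25), slc2a1b (1.69) and slc2a3b (2.14), the kinases pdk2a (1.97), pdk3a (1.16) and pdk4 (1.41), and pfkfb2a, pfkfb3, pfkfb4a and pfkfb4b (0.96, 1.24, 1.00 and 1.14), which set the level of the activator of phosphofructokinase. The growth factor vegfaa (1.48), the lactate transporter slc16a1b (0.81) and the pyruvate carrier mpc1 (0.66) made up the rest. All 16 were positive and called on total counts as well, where 55.6% of all genes were called higher. On the quantile values pfkfb2a, pfkfb4a, pdk3a and mpc1 were positive and not called. The hypoxia factor hif1ab was lower with TMM (−1.08), but stood at −0.38 on total counts and −0.30 on quantile values, neither called. At 7.87, 14 and 25.1 µM the counts were 16, 17 and 16 higher and 1, 1 and 2 lower. Over all genes 26.9%, 22% and 25.8% were higher and 23.7%, 19% and 21.2% lower.

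Of the 10 gluconeogenesis genes, 7 were called higher and 1 lower at 5 dpf in DMSO, with a median of 2.05, beside 21.7% and 20.2% of all genes. The higher ones were pck1, an enzyme of glucose synthesis (3.85 ± 0.76, edgeR adjusted p = 8.2e-05), slc37a4a (3.77), fbp1b (3.70), pcxb (2.45), pck2 (2.28), fbp1a (1.83) and pcxa (0.38). These 7 were higher and called under all 3 scalings. The lower one, slc37a4b (−0.51), stood at 0.17 on total counts, not called, so the split of calls was 7 and 0 there, against 7 and 2 on the quantile values. Over all genes the shares were 55.6% and 6.52% on total counts and 15.3% and 20.7% on the quantile values. Markers of liver moved with these genes: 12 of 12 were called higher at 5 dpf in DMSO, their summed level ran from 2142 to 4333 CPM at 5 dpf and from 136 to 1238 CPM at 4 dpf, and none was at 0 in all libraries. Exocrine pancreas markers were called higher in 13 of 13. The part of RNA from these organs in the gluconeogenesis values was not tested. Nor was it tested for the rises of hkdc1, gck, pfkfb1 and slc2a2 given above.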

How the data were processed

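Expected counts per gene and quantile normalized log2 values were deposited by the authors for 48 libraries of pooled larval heads. STAR 2.5.3a, Partek 8.0.19.0428 and GRCz11 are named per the submitters' processing notes, and the strand setting and the handling of shared reads are not given in the sources used here. Of the deposited estimated counts, 77.5% were whole within 1e-09, and all were rounded. The log2 values deposited by the authors cover 19844 genes and were back-transformed, increased by 1 and tested with limma 3.58.1 as an alternative. Genes were filtered with filterByExpr, scaled by TMM and tested with edgeR 4.0.16 (quasi-likelihood, 8 group means in 1 fit, R 4.3.3), with Benjamini-Hochberg adjustment over 20723 genes and a threshold of 0.05. Log2 CPM used a prior count of 2, and ratios of paralogues log2(count + 0.5) with exact permutation tests. Correlations used permutations within groups. Intervals are 1.96 SE on each side.

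All 10 members are named whatever their values, with the 3 most similar genes each (average log2 CPM of at least 1) and the pathway genes that passed the test or, where none did, the 3 largest changes each way, except for 1 gene that is not reported here. The members and all lists were chosen with earlier results of these data known. No libraries looked like duplicates: over 1128 pairs, chi-square per gene was never below 14.1. The scripts' tests were tried on simulated data. Alternatives were DESeq2 1.42.0, RLE factors, total counts, at least 1 CPM in 6 libraries, no filter, a letter block, the compared libraries alone, leaving out each library, ranked concentrations and a pseudocount of 5. The term for column position, the fit without the 3 libraries of low top-10 share, and ratios of ldha over pkma and of tpi1b over gapdhs were added after seeing the data. Python 3.11.15 with NumPy 2.4.6, SciPy 1.17.1, pandas 2.3.3 and matplotlib 3.10.9 drew the figures and ran the permutations.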

Additional observations from a re-analysis of the deposited data

Results flagged for a closer look

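Of the 80 sets of 6 libraries (10 genes in 8 groups), 5 held a library whose gap to its nearest neighbour took up more of the group's range in log2 CPM than the 95% critical value of Dixon's test; chance gives about 1 in 20 groups. Library E of the 14 µM group at 5 dpf accounted for 3 of them. Its gapdh stood high, at 554 CPM with a gap of 0.637 of the range. Its ldha stood low, at 41.9 CPM with a gap of 0.677, and its tpi1b low, at 54.4 CPM with a gap of 0.697. In library I of 7.87 µM at 5 dpf, 1 of the 3 libraries whose 10 most abundant genes held under 15% of the counts, ldha stood low at 18.1 CPM, with a gap of 0.745. In library E of DMSO at 4 dpf, eno3 stood high at 819 CPM, with a gap of 0.66. Each of these libraries is among those left out in turn in the ranges given for the age comparisons.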

How the results depend on the processing

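No member was called in any PFHxS, interaction or slope comparison, and no paralogue ratio passed, under any alternative run, with 0 to 0 members or ratios when each library was left out. Leaving out each library gave 4 to 5 members called between the ages in DMSO, 5 to 6 at 7.87 µM, 3 to 6 at 14 µM and 5 to 6 at 25.1 µM. Libraries of other groups with the same letter had a median r of deviations of 0.04 (−0.59 to 0.81), against −0.02 (−0.73 to 0.76) for other letters. Ranges this wide cannot settle whether the letters pair the libraries. With the replicate block, 7 members (3 higher, 4 lower) were called between the ages at 14 µM, against 4 without it, and 2 were higher at 7.87 µM, against 1. In DMSO 3 were higher, against 2. Over all genes the block took the calls from 8486 to 9720 at 14 µM and from 8682 to 9662 in DMSO. The block took the genes called for the slope at 5 dpf to 0, against 1, and the members at an unadjusted p under 0.05 for 7.87 µM at 4 dpf to 2, against 1. Directions turned in the age comparisons under the other scalings. On the quantile values aldocb stood at 0.24, 0.51, 0.39 and 0.19 in DMSO and at 7.87, 14 and 25.1 µM, pkma at 0.037 and 0.15 at 7.87 and 14 µM, and gapdhs at 0.14 and 0.12 in DMSO and at 14 µM. On total counts aldocb stood at 0.093, 0.22 and 0.22 in DMSO and at 7.87 and 14 µM, and gapdhs at 0.066 in DMSO; the cause was not tested. The tpi1b call at 14 µM was lost with RLE factors (0.62, edgeR adjusted p = 0.052) and with the compared libraries alone (0.62, 0.125), and that of ldha at 7.87 µM with the compared libraries alone (1.09, 0.0716). Over all genes at 14 µM, 13869 were called on total counts against 8486 with TMM. Without 1 library at a time, up to 128 genes were called for 7.87 µM at 4 dpf (without DMSO library F) and up to 1 at 14 µM, against 0. Depth limits tpi1a most, with 73 to 816 counts a library.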

Other observations

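A pair of ratios was chosen after the values were seen and is given without a test. Within single libraries, ldha over pkma was higher at 5 than at 4 dpf by 1.72 in DMSO and by 2.27, 1.64 and 1.95 at 7.87, 14 and 25.1 µM in log2 counts, with 6, 5, 5 and 6 of the 6 libraries at 5 dpf above all those at 4 dpf. Its values in DMSO were −3.78 to −2.91 at 5 dpf and −5.53 to −4.22 at 4 dpf. The ratio of tpi1b over gapdhs was higher by 1.62, 1.65, 1.57 and 1.90, with 6 of 6 libraries above in all 4 comparisons. A ratio within a library does not depend on its scaling factor. However, each ratio sets a gene chosen for its rise over a gene chosen for its fall on the TMM scale. A higher ratio at 5 dpf thus followed in part from the choice. How often other such pairs separate the ages was not counted. On the quantile values the differences were 1.19, 1.44, 0.96 and 1.34 for ldha over pkma, and 1.19, 1.02, 0.98 and 1.37 for tpi1b over gapdhs. There the libraries at 5 dpf above all those at 4 dpf numbered 6, 3, 2 and 6 of 6 for ldha over pkma and 6, 6, 4 and 6 for tpi1b over gapdhs.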
